A study of Mus musculus with 12 samples.

Results

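The laminin chains described here were 8 genes taken by name from both expression tables, namely the α chain genes Lama1, Lama3, Lama4 and Lama5, the β chain genes Lamb1, Lamb2 and Lamb3, and the γ chain gene Lamc1. They were 8 of 24906 genes listed, and 6 of them had a mean of at least 0.5 FPKM (fragments per kilobase, a level corrected for transcript length and for library depth) in both tables. RNA-Seq had been made from 12 libraries of mouse small intestinal tumor organoids, which are clusters of tumor epithelium grown in culture. Every library was labelled with the genotype Smad4KO;BRAFV600E/+;pINDUCER-SMAD4, that is, loss of Smad4, an activated BRAF allele and a lentiviral SMAD4 cassette switched on by doxycycline (dox), so by these labels no library had intact Smad4. In basement membrane extract (BME), untreated organoids of lines 682, 700 and 889 stood beside organoids of lines 700 and 889 given 4 µg/mL dox. On tissue culture plastic without BME, untreated and dox-treated organoids of lines 560, 700 and 889 were compared, and all cultures ran for 48 h.

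The recombination had been made in gut epithelium with a Villin-driven, tamoxifen-inducible Cre, each line number stands for 1 tumor organoid line, and the labels give no age for the mice. A further BME library of line 682 was labelled as dox-treated in its title and as mock in its treatment field, and it was placed with the untreated libraries because the study counts 4 vehicle and 2 dox libraries in BME. The study's methods also describe a mock plasmid, so this library may lack the SMAD4 cassette that its genotype label gives. Lines 700 and 889 occur in both environments, so the 5 dox pairs came from 3 lines and were not 5 independent lines. The tables of BME and plastic libraries were normalized separately, so levels were compared between environments only by rank within a library.

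Laminins are secreted trimers of one α, one β and one γ chain that form the sheet of the basement membrane under an epithelium and are bound by integrins and dystroglycan on the cell surface. The chains of Lama3 and Lamb3 are found together in the laminin that anchors epithelial cells through hemidesmosomes. The chain of Lama5 pairs with those of Lamb1 or Lamb2 and Lamc1 in the main laminins of the adult gut epithelium, whereas the chains of Lama1, Lamb1 and Lamc1 form the laminin of the mouse sarcoma matrix from which BME is made.

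Smad4 itself reached 17.2 FPKM (line 700) and 27.3 FPKM (line 889) under dox in BME, against 6.23 to 10.3 FPKM in the 4 control libraries, the upper value being the mock library. On plastic it stood at 73.6, 18.1 and 48.9 FPKM with dox in lines 560, 700 and 889, against 1.54 to 4.76 FPKM untreated. The targeted gene was thus higher in every dox library, yet in limma across all genes its adjusted p was 0.959 in BME and 0.162 on plastic. Of 10 epithelial markers, 9 or 10 passed 0.5 FPKM in every library, and their summed level was 5961 to 7050 FPKM in BME control, 9791 to 11425 in BME dox, 13620 to 15893 in plastic untreated and 12781 to 17919 in plastic dox libraries. The summed fibroblast and smooth muscle list of 14 genes reached 26.8 FPKM at most, the endothelial list of 8 genes 16.1 FPKM and the leukocyte list of 8 genes 39.5 FPKM. Of the leukocyte list, Adgre1, a defining macrophage gene, was listed at 0 in all 12 libraries. Cd68 of the same list ranged from 2.70 to 38.7 FPKM over the 12 libraries, and Csf1r from 0.152 to 1.26 FPKM. Cdx1, an intestinal transcription factor, stood at 10.1 and 8.28 FPKM in the BME libraries of line 700 and at 0.268 FPKM or less in the other 10 libraries. In these bulk libraries fewer cells that express a gene and less RNA per cell cannot be told apart.

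Lama3 encodes the α chain of the hemidesmosomal laminin. In BME its level was 12.7 FPKM without and 18.3 FPKM with dox in line 700, and 4.86 and 11.1 FPKM in line 889. Line 682 gave 3.14 FPKM without dox and 3.99 FPKM as mock. The lowest dox value, from line 889, lay below the untreated value of line 700, so the groups overlapped, and the untreated lines differed among themselves from 3.14 to 12.7 FPKM. On plastic the levels were 19.5 FPKM without and 51.2 FPKM with dox in line 560, 47.4 and 78.7 FPKM in line 700, and 32.3 and 53.5 FPKM in line 889. All 3 dox libraries on plastic lay above all 3 untreated ones, a pattern that 7.87% of the 12333 genes tested there showed in the same direction.

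In limma on log2(FPKM + 1), in which a change understates the fold of low genes, Lama3 was 1.26 ± 0.50 (SE) higher with dox in BME (2 dox against 4 control libraries, adjusted p = 0.959) and 0.93 ± 0.35 (SE) higher on plastic (3 against 3, adjusted p = 0.583). The unadjusted limma p was 0.0429 in BME and 0.0363 on plastic, and neither change passed the adjusted threshold of 0.05. With each line as a block the BME value was 0.77 (adjusted p = 0.671), and counting the mock library as dox made it 0.61. Without the untreated library of line 560 the plastic value was 0.60. Within the 5 same-line pairs Lama3 was higher with dox in 5 of 5, by 0.50 and 1.05 in lines 700 and 889 in BME and by 1.35, 0.72 and 0.71 in lines 560, 700 and 889 on plastic. The mock library of line 682 was 0.27 above its untreated partner, a smaller difference than in any dox pair.

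Lamb3 encodes the β chain that is found with Lama3 in the same trimer. In BME it stood at 36.8 FPKM without and 48.6 FPKM with dox in line 700, and at 26.5 and 46.9 FPKM in line 889. Line 682 gave 26.0 FPKM without dox and 30.7 FPKM as mock. Both dox libraries lay above all 4 control libraries, as 6.33% of the 12996 genes tested in BME did. Its levels on plastic were 64.2 FPKM without and 102 FPKM with dox in line 560, 104 and 178 FPKM in line 700, and 92.9 and 147 FPKM in line 889. The dox library of line 560 lay within the untreated range, so the groups overlapped on plastic although each line had more Lamb3 with dox than without.

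The limma difference for Lamb3 was 0.67 ± 0.18 (SE) in BME (adjusted p = 0.959) and 0.69 ± 0.29 (SE) on plastic (adjusted p = 0.606), so neither passed the adjusted threshold. The unadjusted limma p was 0.0084 in BME and 0.0516 on plastic. Lamb3 was higher with dox in 5 of 5 same-line pairs, and the 5 differences lay closer together than for any other of the 6 chains over the filter, from 0.39 to 0.80 with a mean of 0.65 ± 0.16 (SD). For Lama3 the same mean was 0.87 ± 0.33 (SD). The mock library was 0.23 above its partner for Lamb3.

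The promoter windows of Lamb3, which was higher with dox in every pair, and of Lama5, which was not, are shown for the sequence at their starts. They come from RefSeq on build GRCm38.p6, a later build than the mm9 named in the submitters' processing notes, and each runs 5′ to 3′ on the gene's strand from 250 bases before to 50 bases after a start. The table held windows for Lamb3 (2 starts, 249 bases apart, whose windows share 51 bases), Lama5, Lamb1 and Lamb2, and Lama1, Lama3, Lama4 and Lamc1 are only named. The first Lamb3 window is chr1:193301744-193302043 on the plus strand, the other is chr1:193301993-193302292 on the plus strand, and the Lama5 window is chr2:180225810-180226109 on the minus strand. Capitals mark CAGAC, the letters of a SMAD-binding element, or its reverse complement GTCTG.
Lamb3 start 1: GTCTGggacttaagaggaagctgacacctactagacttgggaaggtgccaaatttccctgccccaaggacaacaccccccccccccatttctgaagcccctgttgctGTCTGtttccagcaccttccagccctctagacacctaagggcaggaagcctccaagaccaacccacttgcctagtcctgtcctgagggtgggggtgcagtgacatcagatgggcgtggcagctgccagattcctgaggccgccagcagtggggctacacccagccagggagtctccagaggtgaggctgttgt
Lamb3 start 2: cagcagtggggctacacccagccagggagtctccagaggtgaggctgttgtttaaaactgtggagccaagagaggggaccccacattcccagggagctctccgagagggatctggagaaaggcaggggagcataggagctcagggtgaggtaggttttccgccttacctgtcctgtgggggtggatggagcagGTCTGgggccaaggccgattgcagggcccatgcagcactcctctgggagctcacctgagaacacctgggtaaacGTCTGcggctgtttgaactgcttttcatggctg
Lama5: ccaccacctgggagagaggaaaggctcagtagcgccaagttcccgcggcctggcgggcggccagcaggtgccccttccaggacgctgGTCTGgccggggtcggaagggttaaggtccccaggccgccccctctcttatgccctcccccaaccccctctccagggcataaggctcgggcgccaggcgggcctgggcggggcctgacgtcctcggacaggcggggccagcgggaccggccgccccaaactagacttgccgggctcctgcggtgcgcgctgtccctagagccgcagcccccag
CAGAC on either strand occurred 2 times in each Lamb3 window and 1 time in the Lama5 window. Of all 32851 windows of the same length, 49.6% hold it at least 1 time, and the share with 2 matches was not counted. Matches in the Lamb1 and Lamb2 windows were not counted separately. The letters TGANTCA of the AP-1 element, which read the same on both strands, occurred in 0 of these 3 windows and in 7.81% of all windows. With no TGANTCA match there, no overlap of the motifs was possible in these windows. A match of so few letters is a description of the sequence and not a binding site.

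**Figure D1:**
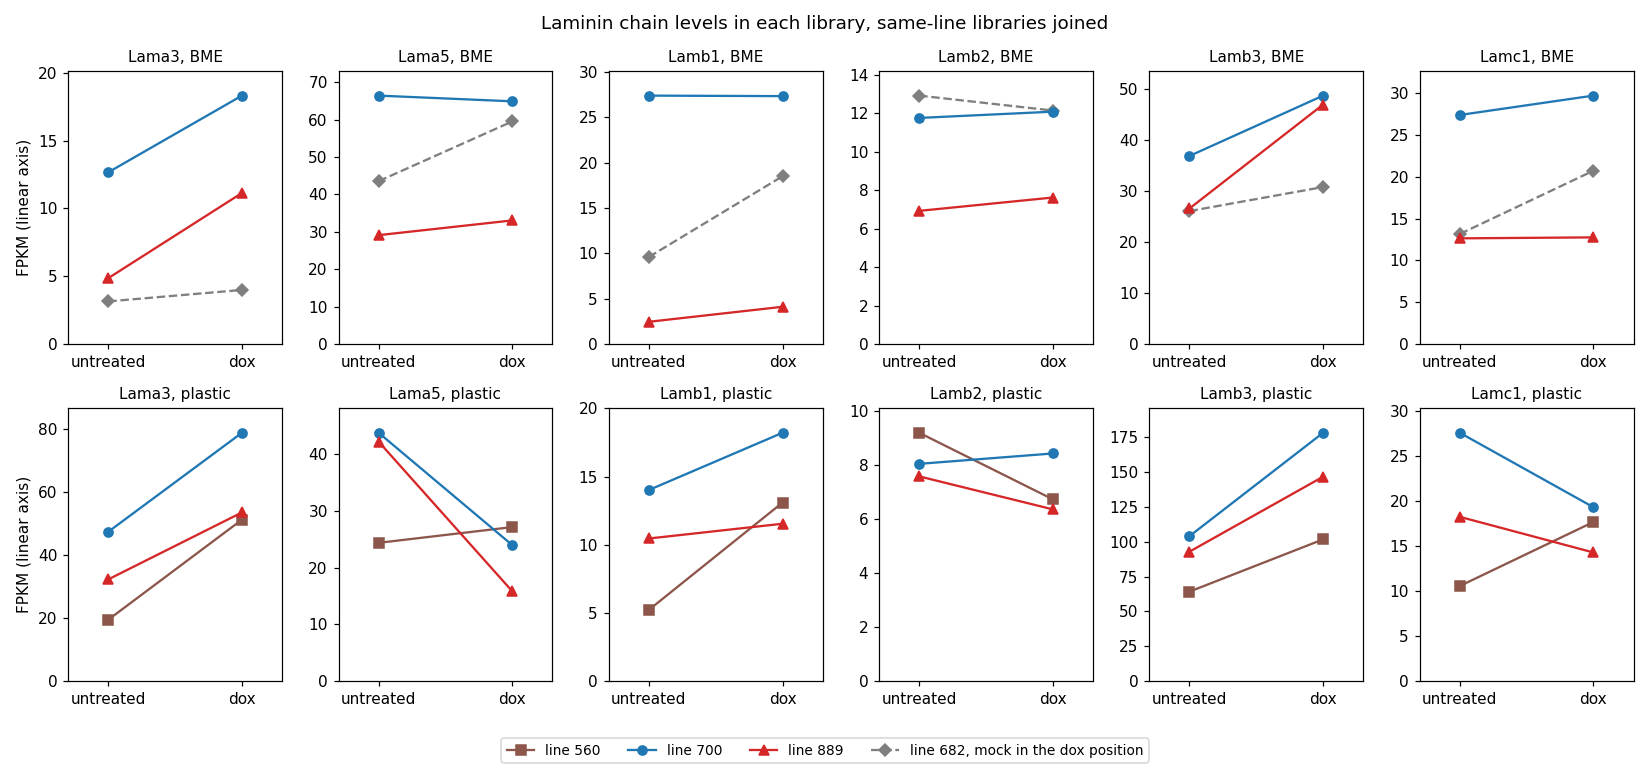
FPKM (linear axis, from 0) of the 6 laminin chain genes over the filter, in BME (upper panels) and on plastic (lower panels). Each point is 1 library, lines join libraries of the same organoid line from untreated to dox, and the dashed line joins the untreated and mock libraries of line 682. Lama3 and Lamb3 slope upward in every joined pair, whereas Lama5 on plastic slopes down in lines 700 and 889 and not in line 560.

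Lama5 encodes the α chain of the laminins that lie under the mature gut epithelium. In BME it had the highest mean of the 8 genes and exceeded Lamb3 in 5 of 6 libraries, standing at 66.4 FPKM without and 64.9 FPKM with dox in line 700 and at 29.1 and 33.0 FPKM in line 889. Line 682 gave 43.5 FPKM without dox and 59.5 FPKM as mock. The lines differed more from each other than dox and untreated libraries of the same line did. Plastic cultures held 24.4 FPKM without and 27.1 FPKM with dox in line 560, 43.7 and 24.0 FPKM in line 700, and 42.2 and 15.8 FPKM in line 889. The groups overlapped there, because the untreated library of line 560 was lower than those of the other lines.

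The limma difference for Lama5 was -0.03 ± 0.40 (SE) in BME (adjusted p = 0.995) and -0.68 ± 0.31 (SE) on plastic (adjusted p = 0.630). On plastic the pairs gave 0.15 in line 560, -0.84 in line 700 and -1.36 in line 889, and in BME they gave -0.03 and 0.18 in lines 700 and 889. The same lines 700 and 889 thus had less Lama5 with dox on plastic and nearly equal levels in BME. The difference between the environments was -0.65 ± 0.54 (SE) in the limma interaction term (adjusted p = 1.00), so it did not pass the test. It was -1.17 in lines 700 and 889 alone, -0.18 without the BME dox library of line 700 and -1.13 without that of line 889.

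Lamb1 and Lamb2 encode the β chains that can pair with Lama5, and Lamc1 the γ chain they share. In BME Lamb1 stood at 27.4 FPKM without and 27.3 FPKM with dox in line 700, at 2.45 and 4.11 FPKM in line 889, and at 9.60 FPKM untreated and 18.5 FPKM mock in line 682. On plastic it stood at 5.23 FPKM without and 13.1 FPKM with dox in line 560, 14.0 and 18.2 FPKM in line 700, and 10.5 and 11.5 FPKM in line 889. The ratio of its highest to its lowest BME value was greater than that of any other expressed member, and it was higher with dox in 4 of 5 pairs. The limma difference was 0.01 ± 1.00 (SE) in BME (adjusted p = 0.999) and 0.55 ± 0.36 (SE) on plastic (adjusted p = 0.755), where it was 0.20 without the untreated library of line 560. The mock library of line 682 was 0.88 above its untreated partner, more than in either BME dox pair, where the differences were -0.0028 and 0.56.

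Among the 6 chains over the filter, Lamb2 had the narrowest range of FPKM in both environments. In BME it stood at 11.7 FPKM without and 12.1 FPKM with dox in line 700, at 6.92 and 7.61 FPKM in line 889, and at 12.9 FPKM untreated and 12.1 FPKM mock in line 682. Its plastic values were 9.21 FPKM without and 6.74 FPKM with dox in line 560, 8.06 and 8.44 FPKM in line 700, and 7.59 and 6.37 FPKM in line 889. It was higher with dox in 3 of 5 pairs, and the limma difference was -0.14 ± 0.29 (SE) in BME (adjusted p = 0.979) and -0.19 ± 0.20 (SE) on plastic (adjusted p = 0.861).

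Lamc1 stood in BME at 27.4 FPKM without and 29.7 FPKM with dox in line 700, at 12.6 and 12.8 FPKM in line 889, and at 13.2 FPKM untreated and 20.7 FPKM mock in line 682. The plastic values of Lamc1 were 10.6 FPKM without and 17.7 FPKM with dox in line 560, 27.6 and 19.3 FPKM in line 700, and 18.3 and 14.3 FPKM in line 889. Lines 700 and 889 had less Lamc1 with dox on plastic, and line 560 had more, as for Lama5 but with wider steps in line 560. It was higher with dox in 3 of 5 pairs, and the limma difference was 0.15 ± 0.43 (SE) in BME (adjusted p = 0.984) and -0.04 ± 0.35 (SE) on plastic (adjusted p = 0.987).

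Lama1 and Lama4 were at or near 0. Lama1, the α chain of the laminin in BME, had 3 rebuilt reads in each of the untreated BME libraries of lines 682 and 889, and 0 in the other 4 BME libraries and in all 6 plastic libraries. Lama4, an α chain made mainly by vessel and other mesenchymal cells, had 0 to 6 rebuilt reads per BME library and 0 on plastic. A count of 0 allows up to 3 reads, so for neither gene is a difference with dox given. The highest value listed for Lama1, the α chain of the matrix, was 0.020 FPKM. Whether RNA from the BME entered the BME libraries was not tested beyond that value.

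**Figure D2:**
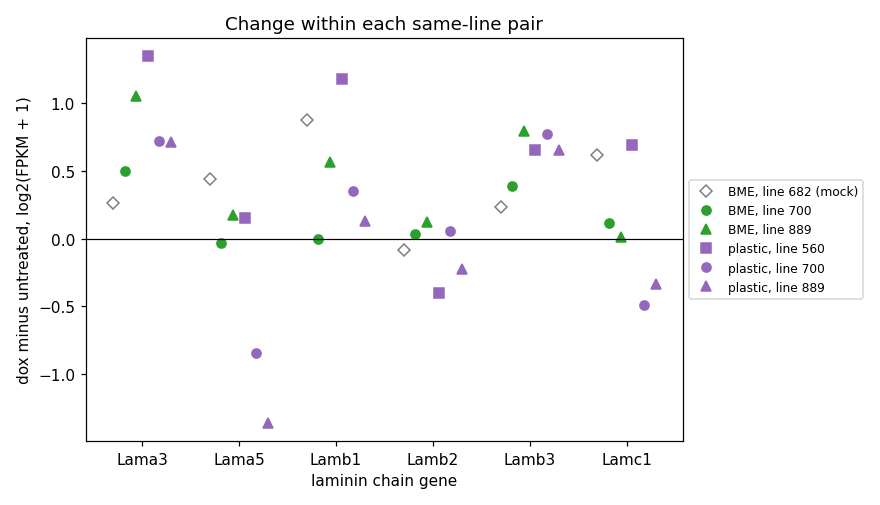
Difference in log2(FPKM + 1) between dox and untreated libraries of the same line (vertical axis) for the 6 laminin chain genes (horizontal axis). Filled green points are BME pairs, filled purple points are plastic pairs and the open diamond is the mock library of line 682 against its untreated partner. All 5 filled points are above 0 for Lama3 and Lamb3, whereas for Lama5 they run from -1.36 to 0.18.

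Across the 6 members over the filter, 0 were called with dox in BME and 0 on plastic at an adjusted p under 0.05 and a change over 1 in either direction, where 0.0231% of all 12996 genes in BME and 0.0324% of all 12333 genes on plastic were called. At an unadjusted limma p under 0.05 there were 2 of 6 members in BME (Lama3 and Lamb3), beside 4.09% of all genes, and 1 of 6 on plastic (Lama3), beside 8.29%. The interaction of dox and environment called 0 of 6 members, 0.0% of 11977 genes, and at an unadjusted limma p under 0.05 it gave 0 of 6 members beside 2.53% of genes. The median dox difference over the 6 members was 0.08 in BME and 0.25 on plastic, beside -0.01 and 0.01 over all genes tested. Lama3 and Lamb3 were the 2 of 6 members higher in all 5 dox pairs, as were 8.7% of all genes, and 0 of 6 members were lower in all 5, as 8.06% of all genes were.

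The interaction estimates, as the change on plastic minus the change in BME, were -0.34 ± 0.65 (SE) for Lama3 and 0.03 ± 0.35 (SE) for Lamb3. They were 0.54 ± 1.13 (SE) for Lamb1, -0.05 ± 0.35 (SE) for Lamb2 and -0.19 ± 0.59 (SE) for Lamc1. Every one of these estimates was smaller than its standard error, and the adjusted p was 1.00 in limma for each.

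The keratin-led epithelial marker sum was higher in both BME dox libraries than in all 4 BME control libraries, as was Lamb3, and on plastic its ranges with and without dox overlapped. The part of that shift in the laminin values was not tested. The dox library of line 889 on plastic stood apart in single markers of other cells, with Vim, a mesenchymal filament gene, at 21.6 FPKM and Cd68, a macrophage gene, at 38.7 FPKM, against at most 2.53 and 15.1 FPKM in the other plastic libraries. The fibroblast genes Col1a1, Col1a2, Dcn and Pdgfrb and the myeloid gene Lyz2 were listed at 0 FPKM in that library, and the pan-leukocyte gene Ptprc stood at 0.024 FPKM. Without the plastic dox library of line 889 the plastic difference was 1.01 for Lama3 and 0.65 for Lamb3, close to the values with it. For the other chains the plastic difference was -0.47 for Lama5 in place of -0.68, 0.68 for Lamb1 in place of 0.55, -0.12 for Lamb2 in place of -0.19, and 0.07 for Lamc1 in place of -0.04. The BME dox library of line 889 also stood apart within BME, with Col1a1 at 4.13 FPKM and Vim at 2.39 FPKM, against at most 0.973 and 0.429 FPKM in the other 5 BME libraries. Pdgfrb stood there at 0.379 FPKM and Dcn at 0 FPKM, against 1.70 and 0.238 FPKM in the untreated BME library of line 889. Without the BME dox library of line 889 the BME difference was 1.60 for Lama3, 0.69 for Lamb3, 0.45 for Lama5, 1.25 for Lamb1, 0.17 for Lamb2 and 0.72 for Lamc1, with a single dox library left.

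Because FPKM is per length, the α chains could be set against each other within a library. Lama3 made up 6.73%, 16.0% and 14.3% of the summed FPKM of the 4 listed α chains in the untreated BME libraries of lines 682, 700 and 889, 6.28% in the mock library, and 22.0% and 25.2% with dox in lines 700 and 889. On plastic it made up 44.5%, 52.0% and 43.4% untreated in lines 560, 700 and 889 and 65.4%, 76.7% and 77.2% with dox. The share was higher in every dox library than in any control library of the same environment, and nearly all of the remainder was Lama5. The ratio of Lama3 to Lama5 FPKM was 0.124 ± 0.064 (SD, n = 4) in BME controls and 0.310 ± 0.039 (SD, n = 2) with dox, and 0.883 ± 0.174 (SD, n = 3) and 2.85 ± 0.836 (SD, n = 3) on plastic. The BME controls include the untreated and mock libraries of line 682, at 0.072 and 0.067, and that line has no dox library. Within lines in BME the ratio was 0.191 without and 0.282 with dox in line 700, and 0.167 and 0.337 in line 889. These shares and ratios are given as a description.

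**Figure D3:**
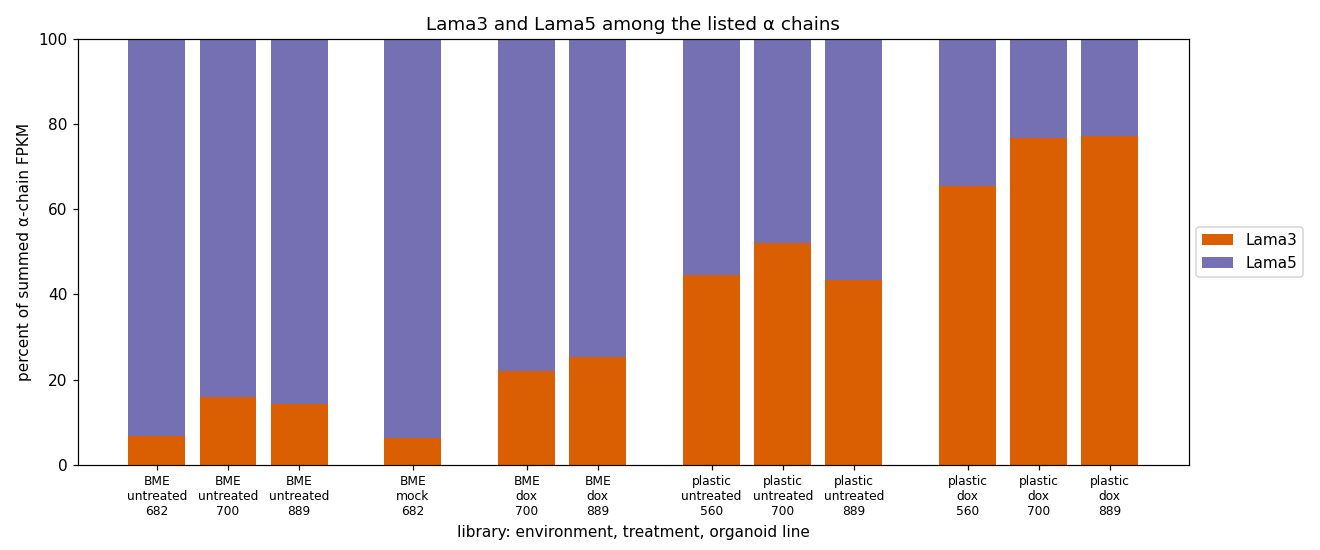
Share of Lama3 (orange) and Lama5 (violet) in the summed FPKM of the 4 listed α chains, in percent, for each of the 12 libraries by environment, treatment and organoid line. The Lama3 share runs from 6.28% to 16.0% in BME controls, from 22.0% to 25.2% in BME with dox, from 43.4% to 52.0% on untreated plastic and from 65.4% to 77.2% on plastic with dox.

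Among the β chains Lamb3 made up 48.5% to 73.9% of the summed FPKM in the BME controls and 55.3% and 80.0% with dox, and these ranges overlapped. On plastic the share was 81.6% to 83.7% untreated and 83.7% to 89.1% with dox, where the lowest dox value, 83.68%, lay under the highest untreated one, 83.72%. Within lines the Lamb3 share was higher with dox in 5 of 5 pairs, and the mock library, at 50.1%, was below its untreated partner, at 53.6%.

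The order of mean FPKM within the BME libraries was Lama5, Lamb3, Lamc1, Lamb1, Lamb2 and Lama3, with Lama4 and Lama1 near 0. Lama5 exceeded Lamb3 in 5 of 6 libraries, Lamb3 exceeded Lamc1 and Lamc1 exceeded Lamb1 in 6 of 6, whereas Lamb1 against Lamb2 and Lamb2 against Lama3 split 3 to 3 and were not separated. On plastic the order was Lamb3, Lama3, Lama5, Lamc1, Lamb1 and Lamb2. There Lamb3 exceeded Lama3 in 6 of 6 libraries, Lama3 exceeded Lama5 in 4 of 6, Lama5 exceeded Lamc1 and Lamc1 exceeded Lamb1 in 6 of 6, and Lamb1 exceeded Lamb2 in 5 of 6. These means pool dox and control libraries. In BME Lama3 was above Lamb2 in both dox libraries, with means of 14.7 and 9.84 FPKM, and in the controls its mean of 6.16 FPKM was below the 10.9 FPKM of Lamb2. Among untreated plastic libraries alone the mean of Lama5, 36.8 FPKM, was above that of Lama3, 33.0 FPKM.

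The place of each chain among the 11977 genes over the filter in both tables was then compared between untreated libraries of the 2 environments. Lama3 was at the 29.4 ± 16.8 (SD, n = 3) percentile of its library in BME and at the 76.3 ± 9.06 (SD, n = 3) percentile on plastic, and Lamb3 at 73.0 ± 4.45 and 90.9 ± 2.86 (SD, n = 3 each). For both genes the 3 plastic libraries ranked above the 3 BME libraries (two-sided exact permutation p = 0.1 for each, the smallest that 3 against 3 allows), a separation in that direction that 18.2% of all ranked genes showed. In the lines present in both environments, Lama3 was 35.8 percentile points higher on plastic in line 700 and 54.8 in line 889, and Lamb3 14.7 and 21.5 points. For the remaining 4 members the ranges overlapped, at 81.0 and 79.3 for Lama5, 41.4 and 47.9 for Lamb1, 42.6 and 44.6 for Lamb2, and 56.7 and 63.9 for Lamc1 (mean percentile in BME and on plastic, exact permutation p = 0.5 or more).

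Over all libraries, Lama3 ranged from the 16.3 to the 59.7 percentile in the 6 BME libraries and from 66.4 to 89.4 in the 6 plastic libraries, and Lamb3 from 70.1 to 82.9 and from 87.6 to 95.4. These 2 of 6 members ranked higher in all 6 plastic libraries than in any BME library, as did 8.25% of all ranked genes. Lama5 ranged from 73.2 to 87.7 in BME and from 60.5 to 83.2 on plastic, where the lowest value came from the dox library of line 889. Between untreated libraries of the same line, its plastic minus BME difference was -4.54 points in line 700 and 9.98 points in line 889. Environment, table and lines 560 and 682 go together, and a processing difference between the tables cannot be told apart from the environment.

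**Figure D4:**
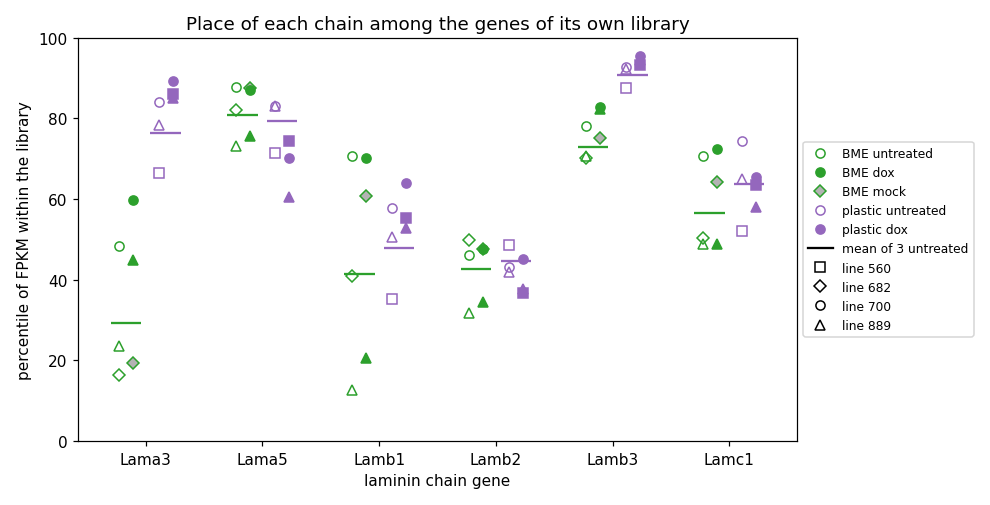
Percentile of FPKM within each library (vertical axis, among 11977 genes) for the 6 laminin chain genes (horizontal axis). Green points are BME and purple points plastic libraries, open for untreated and filled for dox, grey-filled for the mock library, with the shape giving the line and the bar the mean of the 3 untreated libraries. The plastic and BME points of Lama3 and Lamb3 do not overlap, and those of the other 4 genes do.

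After centring each table on its own mean, the genes whose log2(FPKM + 1) followed each member most closely over the 12 libraries were sought among 8014 genes with a mean of at least 5 FPKM in both tables. The points share lines and, within an environment, a table, so r is a description. For Lama3 they were Mpzl3 (r = 0.965), Prr13 (0.934) and Vti1a (0.929), and Lamb3 was 21st at 0.887. For Lamb3 they were Anxa7 (r = 0.974), Tmem50b (0.968) and Endod1 (0.967). For Lama5 they were Exoc4 (r = 0.960), Iars2 (0.951) and Syt16 (0.936), with Lama3 at 0.113 and Lamc1 at 0.785. For Lamb1 they were Erlin1 (r = 0.946), Abca2 (0.945) and Tmem14a (0.937). For Lamb2 they were Echdc2 (r = 0.963), Zfp503 (0.948) and Sytl1 (0.947), and for Lamc1 they were Malat1 (r = 0.963), Camk2d (0.946) and Eml2 (0.928). The profile of Lama3 over libraries was thus nearer to that of Lamb3 than to that of Lama5.

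Among the partners of laminin, 0 genes were called by limma in either environment in any list. Counts at an unadjusted limma p under 0.05 are to be read against the 4.09% of all genes in BME and 8.29% on plastic that passed it. Of the other laminin chains, Lamc3 reached 0.688 FPKM and Lama2 0.145 FPKM at most, and Lamb4 was not analysed here. Of 22 basement membrane partners 11 were tested in each environment, 6 higher and 5 lower in BME (median 0.14) and 3 higher and 8 lower on plastic (median -0.31), with 1 lower in BME (Fbln1) and 1 higher on plastic (Col18a1) at an unadjusted limma p under 0.05. Named by their mean FPKM pooled over both tables, which does not give the order within either, were Tinagl1, a laminin-binding matrix protein, and Col4a1 and Col4a2, the collagen IV chains. Col4a1 was 35.8 ± 4.78 (SD, n = 2) FPKM with dox and 30.4 ± 6.41 (SD, n = 4) FPKM in controls in BME, and 117 ± 60.6 and 183 ± 69.5 (SD, n = 3 each) on plastic. Col4a2 gave limma differences of 0.36 ± 0.26 (SE) in BME and -0.76 ± 0.35 (SE) on plastic (adjusted p = 0.959 and 0.640), and Tinagl1 0.77 ± 0.61 (SE) and 0.46 ± 0.83 (SE) (adjusted p = 0.959 and 0.930).

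Of 15 laminin receptor and hemidesmosome genes, 14 were tested in BME and 13 on plastic, with 9 higher and 5 lower in BME (median 0.18) and 9 higher and 4 lower on plastic (median 0.23). At an unadjusted limma p under 0.05 there were 1 higher in BME (Cd151) and 2 higher on plastic (Itgb1 and Sdc1). The 3 genes named by the same pooled mean were Rpsa, the ribosomal protein also known as the laminin receptor, Sdc1, a heparan sulfate proteoglycan, and Itgb1, the β subunit of many laminin-binding integrins. Itgb1 was 127 ± 16.0 (SD, n = 2) FPKM with dox and 99.2 ± 14.8 (SD, n = 4) FPKM in controls in BME, and 299 ± 46.7 and 171 ± 75.3 (SD, n = 3 each) FPKM on plastic. Sdc1 gave 0.65 ± 0.44 (SE) and 0.58 ± 0.24 (SE), and Rpsa -0.24 ± 0.29 (SE) and -0.34 ± 0.34 (SE), in BME and on plastic, with adjusted limma p between 0.578 and 0.963 for these 3 genes. Col17a1, the transmembrane collagen of hemidesmosomes, reached 0.194 FPKM at most.

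Of 14 genes for laminin processing and secretion, 9 were tested in BME and 10 on plastic, with 3 higher and 6 lower in BME (median -0.03) and 6 higher and 4 lower on plastic (median 0.33), with 1 higher in each environment (Bmp1) at an unadjusted limma p under 0.05. By that pooled mean the named genes were Mmp7, a secreted protease that varied from 0.072 to 691 FPKM among libraries, P4hb and Hspa5, both folding helpers of the endoplasmic reticulum. P4hb gave limma differences of 0.29 ± 0.23 (SE) in BME and 0.54 ± 0.23 (SE) on plastic (adjusted p = 0.959 and 0.611), and Hspa5 -0.03 ± 0.23 (SE) and 0.29 ± 0.21 (SE). Bmp1, a secreted protease that processes matrix proteins, and Col18a1, a basement membrane collagen, were, like Fbln1 and Cd151 above, singled out after their values were seen. Bmp1 was higher with dox in 5 of 5 pairs, with 0.71 ± 0.28 (SE) in BME and 1.05 ± 0.37 (SE) on plastic (adjusted p = 0.959 and 0.562 in limma). Col18a1 was also higher in 5 of 5 pairs, as 8.7% of all genes were, with 0.82 ± 0.39 (SE) and 0.91 ± 0.22 (SE) (adjusted p = 0.959 and 0.348 in limma).

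The genes are given with their spans on mm9, from the annotation of build NCBIM37. Lamb3 lies on chromosome 1 from 195128151 to 195170072 on the plus strand, and Lamc1 on the same chromosome from 155066052 to 155179916 on the minus strand. Lama5 lies on chromosome 2 from 179911078 to 179960564 on the minus strand, Lamb2 on chromosome 9 from 108382193 to 108392861 and Lamb1 on chromosome 12 from 31950099 to 32014509, both on the plus strand. Lama3 lies on chromosome 18 from 12492533 to 12741522, Lama1 on chromosome 17 from 68046605 to 68171985 and Lama4 on chromosome 10 from 38685321 to 38829994, all on the plus strand. The values are sums over whole genes, and the transcripts of Lama3, which can start at different exons, were not told apart.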

How the data were processed

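Total RNA of the organoids was sequenced in 12 libraries. The authors quantified reads with kallisto and deposited gene-level FPKM values (scaled to transcript length and mapped fragments) in one table for BME and one for plastic. The mm9 build and the tools come from the submitters' processing notes, and their versions and the annotation are not given in the sources used here. The deposited DESeq2 tables hold a mean normalized count signal per gene, used here only to rebuild reads, and the authors' fold changes, errors and p-values, which were not used. Because a gene's FPKM scaled to that mean is a whole multiple of 1 read divided by the size factor, reads were rebuilt: 91.2% to 93.2% of low values came out whole within 0.1, and depth was 14531943 to 16334652 reads in BME and 17024754 to 21070757 on plastic. Intervals and the floor of 3 reads cover counting error only.

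The laminin genes and partner lists were chosen with earlier results of these data known. Genes with a mean of at least 0.5 FPKM were tested on log2(FPKM + 1) by limma 3.58.1 in R 4.3.3 with Benjamini-Hochberg adjustment over all genes tested. Genes were called at an adjusted p under 0.05 with a change of over 1 in either direction. BME compared 2 dox with 4 control libraries, the mock library being a control, plastic 3 with 3, and the interaction used all 12. The procedure was tested on simulated data without differences between lines, so that test does not show how the fits handle such differences. Exact permutation tests, descriptive shares and ranks used Python 3.11.15. Named genes were all members, the 3 most similar genes of each, and the 3 genes of each partner list with the highest mean FPKM over both tables. One gene of these lists is not reported here. Same-numbered libraries come from 1 organoid line: their deviations from the group mean correlated at 0.700, 0.676, 0.461, 0.612 and 0.247. The labels do not say that the libraries are otherwise separate cultures. The main limma fits and the permutation tests held no term for the line, so their p-values treat same-line libraries as independent. The spread they use is that among libraries of these lines. Alternatives were a pseudocount of 0.1, no filter, quantile normalization, the line as a block, limma-voom on rebuilt reads, both other placings of the mock library, and leaving out each library. Sequence came from RefSeq.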

Additional observations from a re-analysis of the deposited data

How the results depend on the processing

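No laminin gene was called with dox in BME, on plastic or in the interaction under any alternative run, and no adjusted limma p of Lama3 or Lamb3 was under 0.219 there. Lama3 and Lamb3 were higher with dox under every alternative, from 0.61 to 1.63 and 0.47 to 0.76 in BME and from 0.60 to 1.22 and 0.49 to 0.91 on plastic, and both were higher with dox in every pair with a pseudocount of 0.1, after quantile normalization and without each line in turn. Without line 700 Lamb1 joined them, and without the untreated BME library of line 700 Lamc1 joined them in the rank comparison. With the line as a block (paired libraries), adjusted limma p was 0.219 in place of 0.583 for Lama3 and 0.264 in place of 0.606 for Lamb3 on plastic, and no call changed. At an unadjusted limma p under 0.05 the block gave 2 of 6 members on plastic (Lama3 and Lamb3), beside 1664 of 12333 genes. In BME that count was 1 member with the mock library left out (349 of 12964 genes) and 0 with it as dox (287 of 12996 genes). On plastic it was 0 without the dox library of line 700 (925 of 12364 genes) or of line 889 (510 of 12313 genes). It was also 0 there without the untreated library of line 889 (600 of 12346 genes).

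The direction of chains with differences near 0 depended on single libraries, and the cause was not tested. In BME Lama5 was 0.072 higher with the block, 0.078 with the mock library left out and 0.20 with it counted as dox. Lamb2 was 0.079 higher with the block and 0.025 with the mock library as dox, and Lamb1 was -0.0073 after quantile normalization. The interaction was 0.15 for Lama3 with the block, 0.32 with the mock library as dox, and -0.038 for Lamb1 in lines 700 and 889 alone. Leaving out each library in turn gave BME ranges of -0.51 to 0.45 for Lama5, -1.22 to 1.25 for Lamb1, -0.44 to 0.17 for Lamb2 and -0.43 to 0.72 for Lamc1, the ends being set by the dox libraries of lines 700 and 889, which leave 1 dox library assumed to vary like the rest. Lamc1 on plastic ran from -0.38 to 0.27, set by the untreated libraries of lines 560 and 700. The interaction ran from -0.70 to -0.0010 for Lama3, set by the untreated and dox BME libraries of line 700, -1.13 to -0.18 for Lama5, -0.69 to 1.78 for Lamb1, -0.35 to 0.25 for Lamb2, -0.17 to 0.25 for Lamb3 and -0.77 to 0.39 for Lamc1, and the ends for Lamb3 were set by the libraries of line 560.

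Chosen after seeing the data, the Lama3 share of α chains with dox minus control was 12.8 percentage points in BME and 26.5 on plastic, 8.46 in BME within lines, and 5.49 with the mock library as dox. Ranked among all genes, the untreated plastic minus BME difference was 22.7 percentile points for Lama3 and 8.62 for Lamb3, and among genes of mean FPKM 5 or more it was 55.6 and 26.4, against 46.9 and 17.9 as reported. Calls over all genes were 3 in BME and 4 on plastic, 0 to 37 and 0 to 55 over the alternatives (the highest without the dox library of line 700 in each), and 0 for the interaction, 5 with no filter. Lama1 and Lama4 fell under the FPKM filter and were left out of the main fits. Without the filter the BME fit took in all 8 members and called 0.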
